A study of Drosophila melanogaster with 34 samples.

Results

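The sites bound by Crooked legs (Crol) and Combgap (Cg) on the small chromosome 4 of Drosophila melanogaster, and in the heterochromatic sequences of its dm3 genome assembly, were described from 5 lists of ChIP-seq peaks. The members were all peaks whose sequence name was 4 or ended in Het, which left out X, 2L, 2R, 3L and 3R, called the arms here. No other sequence held a peak in the lists as deposited. Each list skips between 332 and 357 peak numbers, and where those peaks lay is not known. The rule took 677 of the 48073 peaks, 456 of them on chromosome 4 and 221 on 2LHet, 2RHet, 3LHet, 3RHet, XHet and YHet.

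The study asked whether Crol helps to bring Polycomb group proteins to DNA. The lists gave Crol in brains and imaginal discs of larvae of the third instar labelled wild-type (WT), Crol in the same tissues of larvae lacking the crol gene (crol-KO), Cg in WT and crol-KO larvae, and Crol in S2 cells. S2 is a cultured Drosophila line that came from embryos, and it is labelled WT. Crol was precipitated with the antibody CrolN in all 3 Crol lists, and each list rested on 2 libraries whose reads the authors had pooled. The crol-KO allele was a CRISPR/Cas9 deletion replaced by a DsRed marker, made in a white-eyed line expressing Cas9 from the actin 5C promoter and kept over the CyO balancer. The study still saw some Crol protein in these larvae, so crol-KO is not a complete absence of Crol. The strain of the WT larvae used for ChIP-seq is not given in the sources used here, and genotype and strain background cannot be told apart. The titles name the S2 libraries as S2 cells while their tissue label names discs and brains, and the titles were followed.

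Chromosome 4, the dot chromosome, is coated over much of its length by HP1 and by its own protein POF, yet it carries expressed genes, among them the developmental regulators ci, ey, toy and zfh2. The Het sequences are the assembled parts of the heterochromatin around the centromeres and on the Y, and hold many repeats. Crol is a zinc finger protein that binds runs of G, and Cg binds Polycomb response elements, the DNA from which Polycomb complexes spread repression.

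Each list stood alone, with no replicate check and no test between groups. Each share is followed by its exact Clopper-Pearson 95% interval. Such intervals take in counting error alone and treat peaks as independent. The reads behind the lists, worked out from the peak values, ranged from 3.42 M for WT Cg to 5.77 M for S2, with 4.24 M for WT Crol, 4.89 M for crol-KO Crol and 3.57 M for crol-KO Cg. The crol-KO lists thus rested on 1.15 times the WT reads for Crol and 1.04 times for Cg. The local backgrounds of paired Crol and Cg peaks of a genotype were the same, with a median log2 difference of 0.00, so these lists appear to share a control and are not independent of each other.

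Chromosome 4 held more peaks in crol-KO than in WT for both proteins. The Crol lists had 87 peaks in WT and 102 in crol-KO, a difference of 17.2%. The Cg lists had 82 and 101, a difference of 23.2%. On the arms the Crol peaks went from 10052 to 9781, which is -2.70%, and the Cg peaks from 8856 to 9198, which is 3.86%. In these lists the difference was thus larger on chromosome 4 than on the arms, and for Crol of the opposite direction. Chromosome 4 made up 0.855% of the WT and 1.03% of the crol-KO Crol peaks, and 0.913% and 1.08% of the Cg peaks. These counts carry no interval, and whether they differ beyond counting error was not tested. With only peaks of −log10 q of at least 5, a subset of the same peaks, the numbers on chromosome 4 were 77 and 93 for Crol. For Cg they were 76 and 90. S2 cells had 84 Crol peaks on chromosome 4.

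The crol-KO peaks on chromosome 4 were also wider. Crol peaks had a median width of 534 bp in WT, which became 651 bp in crol-KO, and Cg peaks one of 504.5 and 575 bp. The arms had 523 and 547 bp for Crol and 512 and 538 bp for Cg, and X had 518.5 and 568 bp for Cg. Together the Crol peaks covered 52.5 kb of chromosome 4 in WT and 72.7 kb in crol-KO, and the Cg peaks 48.1 kb and 67.3 kb. The covered length was therefore 1.38 times the WT length for Crol and 1.40 times for Cg, against 1.01 and 1.11 on the arms. In S2 cells the median width was 620.5 bp and the covered length 65.8 kb.

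The Het sequences held 39 Crol peaks in WT and 46 in crol-KO, 43 Cg peaks in WT and 47 in crol-KO, and 46 Crol peaks in S2 cells. Their covered length rose from 24.1 to 30.8 kb for Crol and from 27.8 to 29.2 kb for Cg. The peaks were spread unevenly. In WT, Crol had 3 peaks on 2LHet, 10 on 2RHet, 9 on 3LHet, 11 on 3RHet, 5 on XHet and 1 on YHet. The crol-KO Crol list had 3, 13, 10, 11, 8 and 1 in the same order, so that its additional peaks lay on 2RHet, 3LHet and XHet. The S2 list had no YHet peak and 4, 14, 13, 8 and 7 peaks on the other sequences.

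Fold enrichment is the authors' ratio of the read pileup at a peak's summit to its local background, and depends on the depth of a list. On chromosome 4 its median was 3.60 for WT Crol, 4.03 for crol-KO Crol, 3.65 for WT Cg, 4.03 for crol-KO Cg and 4.80 for S2 Crol. The arms had 3.39, 3.58, 3.64, 3.93 and 4.63 in the same order. Peaks of chromosome 4 were thus near the middle of their lists in strength. The median peak stood at the percentile 56.0, 59.9, 50.2, 52.5 and 52.4 of its list in the same order, furthest from the middle for crol-KO Crol. The Het medians were 3.79, 4.25, 3.71, 3.75 and 4.15.

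The first comparison asked how many WT Crol sites were kept in crol-KO. On chromosome 4, 83 of 87 WT Crol peaks, which is 95.4% (95% interval 88.6 to 98.7), shared 1 bp or more with a crol-KO Crol peak, where the whole list had 81.4%. The single arms ranged from 80.1 to 83.1%, and the interval of chromosome 4 lay above the 81.2% (80.5 to 82.0) of the arms together. Only 4 chromosome 4 peaks were without a partner. In the Het sequences 38 of 39 WT Crol peaks, or 97.4% (86.5 to 99.9), were kept. When peaks had to overlap over 50% of both their widths, the share fell to 81.6% (71.9 to 89.1) on chromosome 4 and to 72.4% (71.5 to 73.3) on the arms, so the 2 intervals then met.

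In the other direction the difference disappeared. Of the 102 crol-KO Crol peaks on chromosome 4, 80 overlapped a WT Crol peak, which is 78.4% (69.2 to 86.0), against 82.3% of the whole list. In the Het sequences 38 of 46 did, or 82.6%. Chromosome 4 thus had few WT sites that were missing in crol-KO, and a share of crol-KO peaks with a WT partner whose interval included that of the arms.

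**Figure D1:**
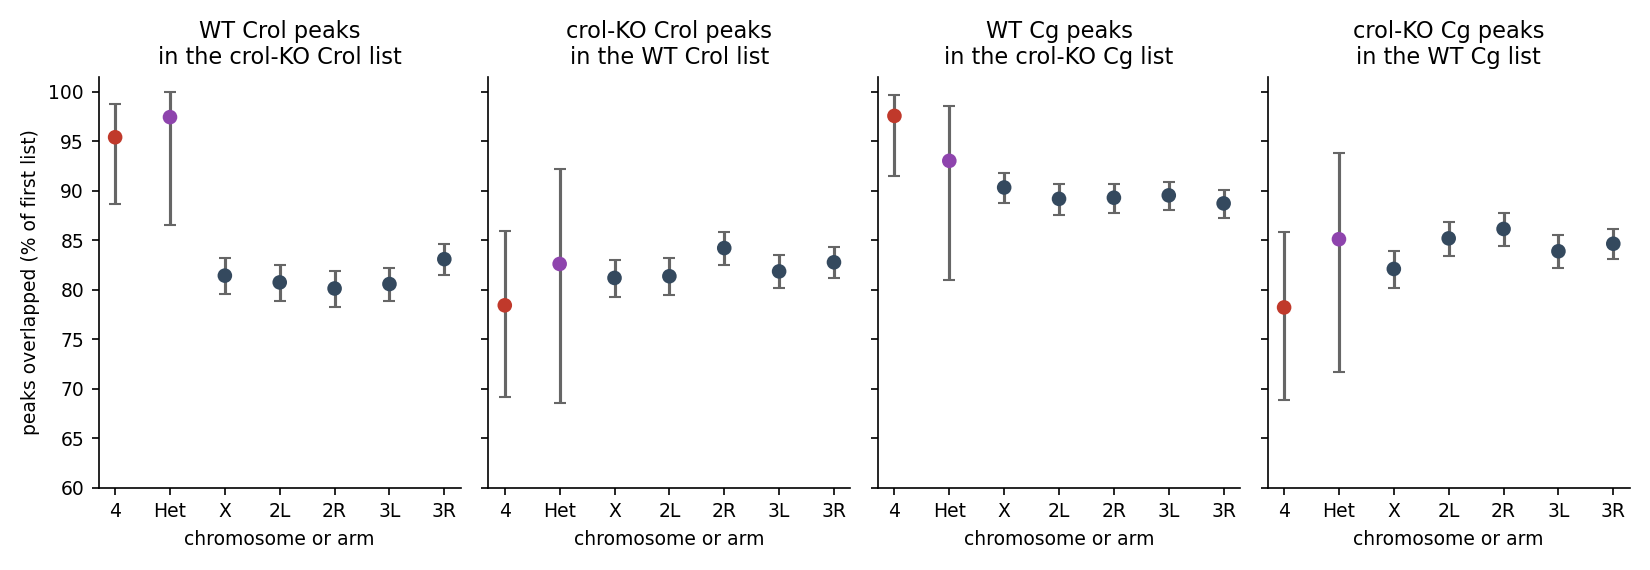
Percent of the first list's peaks that share 1 bp or more with a peak of the second list, for chromosome 4, the Het sequences and each arm. Bars are exact 95% intervals, the axis starts at 60%, and chromosome 4 and Het stand at 95.4 and 97.4% in the first panel while no arm exceeds 83.1%.

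Cg, which the deletion does not target, was kept likewise. On chromosome 4, 80 of 82 WT Cg peaks, or 97.6% (91.5 to 99.7), overlapped a crol-KO Cg peak, against 89.5% of the whole list and 89.4% (88.7 to 90.0) of the arms. Of the 101 crol-KO Cg peaks 79 overlapped a WT one, which is 78.2% (68.9 to 85.8), against 84.4% of the whole list. In the Het sequences the shares were 40 of 43, or 93.0%, and 40 of 47, or 85.1%. With 50% of both widths required, the WT share on chromosome 4 became 87.8% (78.7 to 94.0), an interval that included the 82.3% of the arms.

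The retention on chromosome 4 included the weak peaks. Of the 30 WT Crol peaks in the lowest tertile of fold enrichment of their list, 28 were kept, or 93.3% (77.9 to 99.2), where the arms kept 65.5% (63.9 to 67.1) of such peaks. All 34 in the upper tertile were kept, where the arms kept 95.2%. Among the crol-KO Crol peaks those without a WT partner were mostly weak. Only 7 of the 23 in the lowest tertile overlapped a WT peak, or 30.4% (13.2 to 52.9), where the arms had 60.5%. In the middle tertile 26 of 32 did, against 87.9% on the arms, and all 47 in the upper tertile did, against 98.7%. Weak peaks lie near the calling threshold, so they more often lack a partner by construction. Within 1000 bp, 91 of the 102 crol-KO Crol peaks had a WT peak. For Cg, 21 of 22 weak WT peaks were kept, 95.5% against 73.8% on the arms, and 10 of 27 weak crol-KO peaks had a WT partner, 37.0% (19.4 to 57.6) against 63.8%.

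Peaks of all lists were then merged into loci where they overlapped by at least 1 bp, which gave 130 loci on chromosome 4, 62 in the Het sequences and 14925 in all. The commonest pattern was a peak in every list. It was found at 54 loci of chromosome 4, or 41.5% (33.0 to 50.5), and at 27 Het loci, or 43.5% (31.0 to 56.7), against 31.9% of all loci. All 4 larval lists had a peak at 70 loci of chromosome 4 and at 36 Het loci, which is 53.8% and 58.1%, against 44.1%. A peak in 1 list alone was seen at 35 and 14 loci, against 32.6% of all loci.

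**Figure D2:**
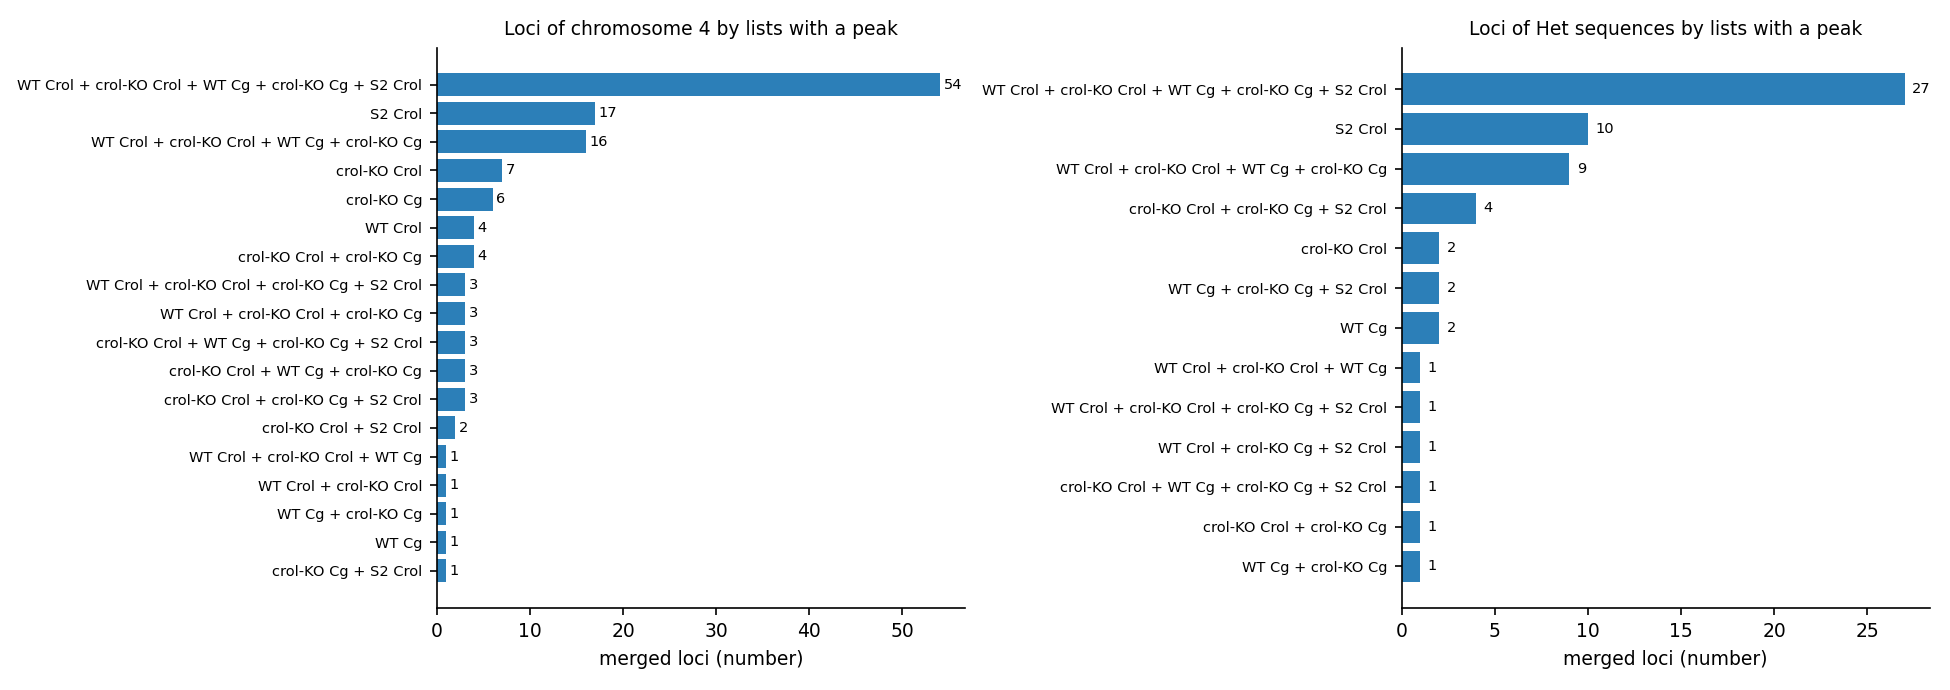
Number of merged loci for each combination of lists with a peak, on chromosome 4 (left) and in the Het sequences (right). Loci with a peak in every list lead with 54 and 27, followed by loci of S2 cells alone with 17 and 10, and loci of the 4 larval lists without S2 with 16 and 9.

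Loci with a peak in every list were the stronger ones. Peaks enter a list by a significance threshold, so stronger sites are called in more lists by construction. Where a list had more than 1 peak at a locus, the highest value was taken, which favours wide loci. On chromosome 4 their median fold enrichment was 3.79 for WT Crol, 5.05 for crol-KO Crol, 4.22 for WT Cg, 5.17 for crol-KO Cg and 6.33 for S2. At the loci of 1 list only the medians were 2.84 over 4 WT Crol peaks, 2.41 over 7 crol-KO Crol peaks, 2.42 over 6 crol-KO Cg peaks and 3.09 over 17 S2 peaks, and the only such WT Cg peak had 2.69.

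More loci of chromosome 4 had peaks in crol-KO lists alone than in WT lists alone. A peak in a crol-KO list and in neither WT list was found at 23 loci, which is 17.7% (11.6 to 25.4), against 9.03% of all loci. The reverse, a peak in a WT list and in neither crol-KO list, was found at 5 loci, or 3.85% (1.26 to 8.75), against 11.9%. On the arms the order was opposite, with 8.95% of loci in crol-KO lists only and 12.0% in WT lists only. With peaks of −log10 q of at least 5, the 23 loci became 14, or 11.9% against 9.15% on the arms, so that most of the excess over the arms was lost. The 5 loci stayed 5, or 4.24% against 11.9% on the arms. With loci merged within 1000 bp they became 14 and 3, or 14.9% and 3.19%, against 8.15% and 10.9% on the arms. The part of the greater depth of the crol-KO lists in this was not tested. The Het sequences had 7 loci of the first kind and 2 of the second.

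Both crol-KO lists and neither WT list had a peak at 7 loci of chromosome 4, or 5.38% (2.19 to 10.8). The same was seen at 5 Het loci, or 8.06% (2.67 to 17.8), against 2.65% of all loci. The interval of chromosome 4 included the share of all loci, and that of the Het sequences began just above it. With −log10 q of at least 5, chromosome 4 had 8 such loci of 118, or 6.78% against 2.73% on the arms. With loci merged within 1000 bp it had 4 of 94, or 4.26% against 2.31%. No locus of either kind of sequence had a peak in both WT lists and in neither crol-KO list, where all loci had 1.88%. For the 130 loci of chromosome 4 the interval of that share reached 2.80% and so included the share of all loci. The 7 loci were weak. The strongest, chr4:107744-108337 (dm3), had fold enrichments of 3.55 for Crol and 4.03 for Cg in crol-KO, and no peak in WT or in S2 cells. At chr4:155965-157174 the values were 3.25 and 4.33 in crol-KO, and S2 cells had a Crol peak of 4.58. The local background at both loci was at the genome-wide level in the crol-KO lists. The others were chr4:899433-901111, chr4:1275811-1276327, chr4:1235441-1236123, chr4:157414-157832 and chr4:502384-502844, with fold enrichments between 2.13 and 3.40 in the crol-KO lists.

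One of the 5 Het loci of this kind was strong. 3RHet:2107028-2107475 had a Crol fold enrichment of 6.50 in crol-KO, at rank 968 of that list, with a summit pileup of 85 reads. Cg had 3.82 in crol-KO with 37 reads, and Crol had 4.67 in S2 cells with 71 reads. Neither WT list had a peak there. The other 4, on 3LHet, 2RHet and XHet, had Crol fold enrichments of 2.36 to 2.85 in crol-KO.

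Peaks that were paired one to one between the genotypes allowed heights to be compared. The summit pileup was divided by the genome-wide background of its list, which corrects for depth. This height is relative within a list and does not measure the amount of Crol or Cg on DNA. The study found less Crol protein in crol-KO by Western blot, and decreased Crol binding at a set of sites. For Crol on chromosome 4, the log2 difference of this height, crol-KO minus WT, had a median of 0.26 over 78 pairs, with quartiles of 0.11 and 0.42 and extremes of -0.73 and 0.89. It was positive at 66 of the 78, or 84.6%, against 60.8% of all pairs. The median on the arms was 0.11 over 7526 pairs, and on single arms it ran from 0.07 to 0.16, so chromosome 4 lay above each arm. For Cg the median on chromosome 4 was 0.17 over 78 pairs, with quartiles of -0.01 and 0.33, and 56 pairs, or 71.8%, were higher in crol-KO, against 62.4%. The arms had 0.09 for Cg, and X reached 0.17, so chromosome 4 did not stand apart from X.

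The local background moved in the opposite direction. On chromosome 4 the background at the summit, relative to the genome-wide one, was lower in crol-KO at 57 of the 78 Crol pairs, with a median log2 difference of -0.12, against 60.8% of all pairs. In the Cg lists it was lower at 60 of the 78 pairs, with a median of -0.10, against 63.1%. Both counts include a few pairs at the genome-wide level in both genotypes, where the sign of the difference is rounding error. The arms had -0.05 and -0.06. Fold enrichment combines both changes, and was higher in crol-KO at 68 of the 78 Crol pairs, or 87.2%, by a median log2 of 0.42, against 64.1% of all pairs. It was higher at 62 of the 78 Cg pairs, or 79.5%, by 0.23, against 66.4%. The width of the paired peaks rose by a median log2 of 0.27 for Crol and 0.20 for Cg. Over all arm peaks the median width also rose, from 523 to 547 bp for Crol and from 512 to 538 bp for Cg. The part of the background in the numbers of peaks was not tested.

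By height, the Het pairs gave no direction common to both proteins. Crol heights were higher in crol-KO at 24 of 38 pairs, or 63.2% against 60.8% of all pairs, with a median log2 difference of 0.16. Cg heights were higher at 16 of 40 pairs, or 40.0% against 62.4%, with a median of -0.05. By fold enrichment Crol was higher at 31 of 38 pairs, or 81.6% against 64.1%, and Cg at 21 of 40, or 52.5% against 66.4%.

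**Figure D3:**
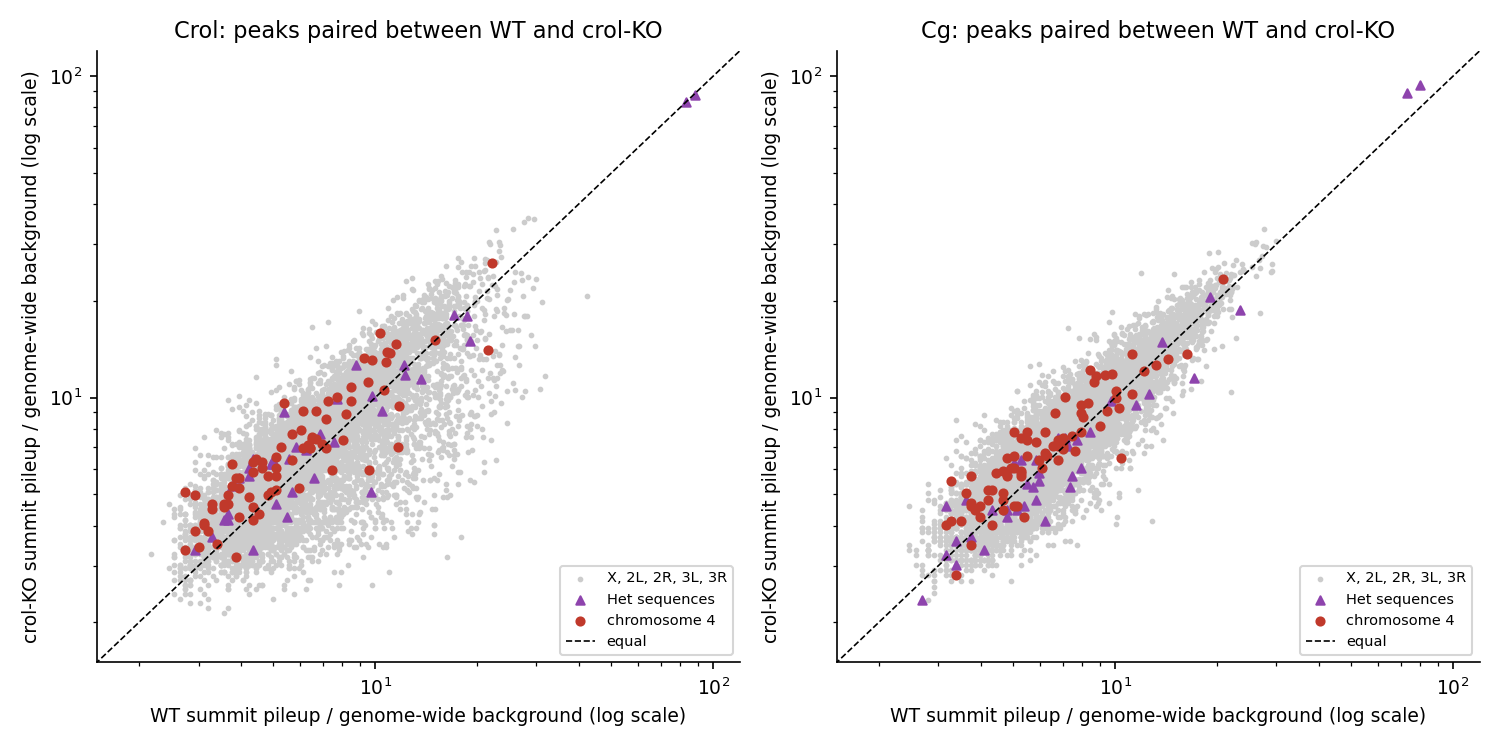
Summit pileup divided by the genome-wide background of the list, WT on the x axis and crol-KO on the y axis (both log scale), for peaks paired one to one, with Crol on the left and Cg on the right. Most chromosome 4 points (66 of 78 for Crol and 56 of 78 for Cg) lie above the dashed line of equal height, and the pair of Het points near 90 are the neighbouring XHet loci.

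Single loci were named for their rank in the lists. A locus chosen as the strongest of 1 list favours that list in a comparison, so these values are a description and lend no support to a direction. At chr4:445124-445905 the Crol fold enrichment was 5.53 in WT, 10.6 in crol-KO and 9.15 in S2 cells, and that of Cg 4.20 in WT and 8.34 in crol-KO. Its Crol value in crol-KO was the highest on chromosome 4 in its list, at rank 79 of 9929. At chr4:328395-329362 Crol had 4.71, 8.46 and 7.14 in the same order, and Cg 6.0 and 8.15. At both loci the values of both proteins were higher in crol-KO.

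The strongest WT Crol peak of chromosome 4 went the other way. It lay at chr4:527366-529592, had a width of 2227 bp, the widest of its kind, and a fold enrichment of 9.73 at rank 81 of 10178. The locus had a Crol value of 5.90 in crol-KO and 4.35 in S2 cells, and Cg values of 5.70 and 5.35 without and with the knockout. Its Crol pileup went from 229 reads to 172 in crol-KO although the crol-KO list was deeper, while that of Cg was 113 reads in both genotypes.

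Other loci led the remaining lists. The strongest WT Cg peak of chromosome 4, chr4:1009975-1010530, had a fold enrichment of 7.40, and its locus had 7.57 in the crol-KO Cg list, 7.08 and 8.22 for Crol in WT and crol-KO, and 3.48 in S2 cells. The strongest crol-KO Cg peak, chr4:1104943-1105770, had 9.82, against 5.50 in WT, with 4.40 and 7.53 for Crol. The strongest S2 peak, chr4:577228-579751, had 16.4, while Crol there had 4.75 in WT and 7.98 in crol-KO, and Cg had 5.72 and 5.35. The lead thus fell to a different locus in each list, although all 5 of these loci had a peak in every list.

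The loci with the best mean rank over the 5 lists included chr4:152349-153316, with fold enrichments of 5.00 and 6.95 for Crol and 5.76 and 6.74 for Cg in WT and crol-KO, and 11.1 in S2 cells. At chr4:506961-507670 the values were 6.28 and 8.28 for Crol, 4.69 and 7.01 for Cg, and 9.15 in S2 cells. Each of the 3 Crol and Cg values measured outside WT larvae was above the WT value of its protein at both loci.

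In no list was chromosome 4 denser in peaks than every arm. From first to last peak, WT Crol had 7.43 peaks per 100 kb on chromosome 4 and 7.83 to 9.41 on the single arms. In S2 cells chromosome 4, with 7.17, also lay below each arm. It was within the range of the arms for crol-KO Crol (8.41), WT Cg (7.01) and crol-KO Cg (8.33). The 130 loci stretched from 62955 to 1276327, at 10.7 loci per 100 kb, with a median gap of 4259 bp between neighbours, and 36 gaps were shorter than 1000 bp. The densest windows of 100 kb were chr4:500001-600000 with 19 loci and chr4:400001-500000 with 16. The longest gap, from 742883 to 807931, was 65049 bp. The Het loci were sparser, with 0.533 per 100 kb between the first and last locus of 2RHet, 0.714 on 3LHet and 0.679 on 3RHet. XHet, where the loci spanned a short stretch, had 7.76.

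**Figure D4:**
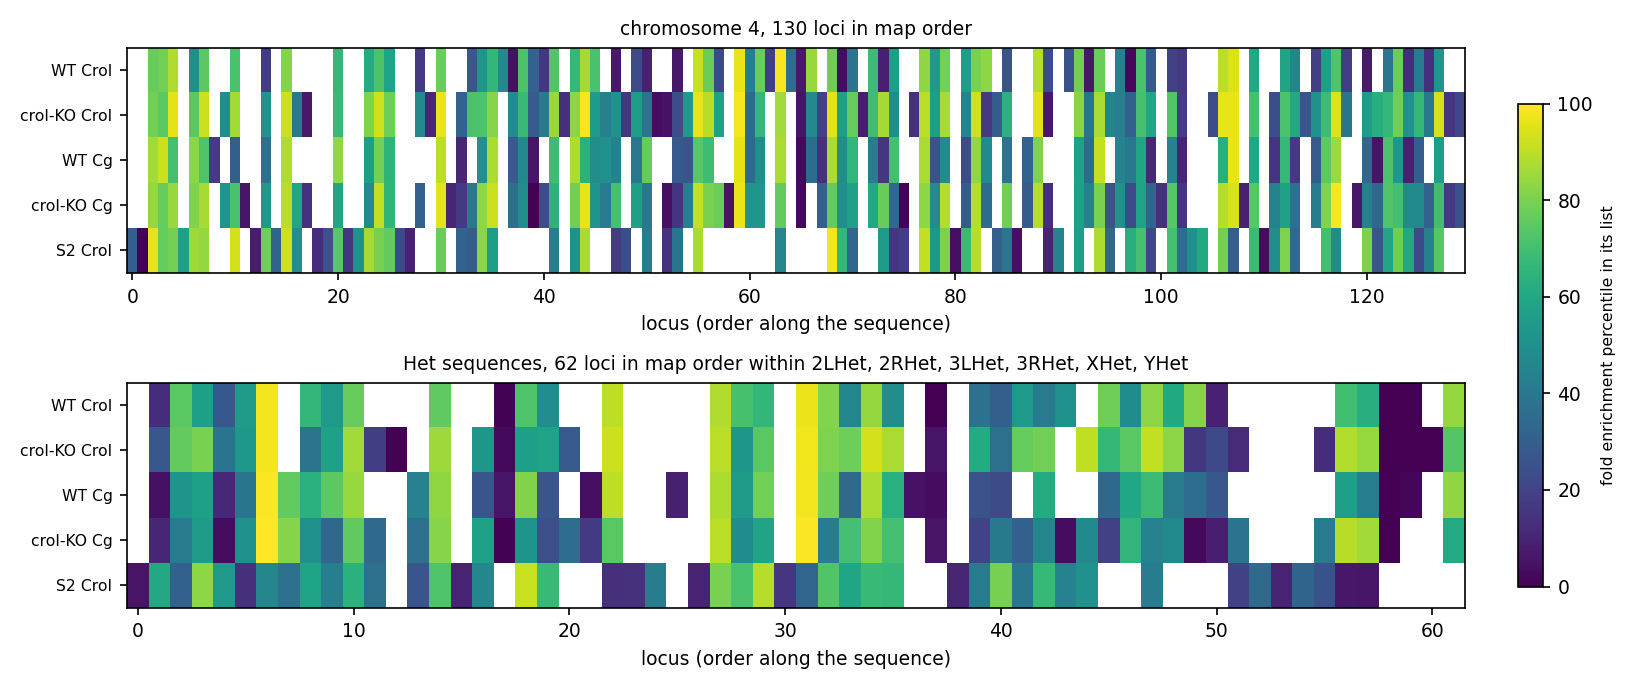
Loci of chromosome 4 (top, 130) and of the Het sequences (bottom, 62) in map order, with 1 row per list and colour for the percentile of the peak's fold enrichment within its list (white, no peak). The first 29 loci of chromosome 4 include 11 of the 17 that only S2 cells had, and a block of columns in the middle has peaks in the larval lists and few in S2.

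Crol in S2 cells was compared with Crol in larval tissue. On chromosome 4, 60 of 87 WT Crol peaks, or 69.0% (58.1 to 78.4), overlapped an S2 peak, against 58.5% of the whole list, and 58 of 84 S2 peaks, or 69.0%, overlapped a WT one, against 58.2%. In the Het sequences the shares were 29 of 39, or 74.4% (57.9 to 87.0), and 29 of 46, or 63.0%. The interval of the first share included the 58.3% of the arms on chromosome 4 and in the Het sequences alike. With 50% of both widths required, the shares on chromosome 4 were 49.4% and 51.2%. All 31 S2 peaks of chromosome 4 in the upper tertile of their list overlapped a WT Crol peak, 100% (88.8 to 100), against 81.8% (80.4 to 83.1) on the arms. At the 56 pairs on chromosome 4 the fold enrichment was higher in S2 cells at 51, or 91.1%, by a median log2 of 0.75, against 85.2% of all pairs. The S2 list rested on 1.36 times the reads of the WT Crol list, and the part of depth in this was not tested.

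Sites of 1 cell source were counted along chromosome 4, in stretches whose limits were chosen after the positions were seen. All 4 larval lists but not S2 had a peak at 16 loci, or 12.3%, and S2 alone at 17 loci, or 13.1%, against 12.2% and 19.7% of all loci. Of the 16 larval loci 10 lay between 400001 and 600000, which held 35 of the 130 loci. Of the 17 S2 loci 11 lay below 300001, where 29 of the 130 lay, and none lay between 300001 and 700000, which held 51. Between 400001 and 550000, 8 of the 18 loci with a peak in all larval lists also had an S2 peak, or 44.4%. On the rest of chromosome 4 it was 46 of 52, or 88.5%. The 18 loci lie close to one another and are not independent.

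The strongest of the larval loci was chr4:521910-522731. Crol had a fold enrichment of 7.66 in WT and 9.63 in crol-KO there, and Cg 7.09 and 8.52, with summit pileups of 235, 322, 178 and 209 reads. These were the highest pileups on chromosome 4 in all 4 larval lists, and no S2 peak overlapped them. The local background was 2.65 to 2.83 times the genome-wide one in these lists. The next ones were chr4:828274-829103, with 5.84 and 7.77 for Crol and 5.11 and 6.63 for Cg, and chr4:509374-510557, with 4.70 and 6.32 for Crol and 4.42 and 5.68 for Cg. The strongest S2 locus without a larval peak, chr4:983601-984194, had 5.40 at rank 3799 of 9639, so the loci of S2 alone were of middle strength at most.

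The local background itself differed between the sequences. On chromosome 4 its median relative to the genome-wide level was 1.51 for WT Crol, 1.30 for crol-KO Crol, 1.52 for WT Cg, 1.34 for crol-KO Cg and 1.19 for S2. Background at the genome-wide level, the lowest a peak can have, was found at 5 of 87 WT Crol peaks, which is 5.75%, against 2.77% of the whole list. In crol-KO it was found at 21 of 102, or 20.6%, against 3.08%. For Cg it was 5 of 82 in WT, or 6.10% against 2.46%, and 16 of 101 in crol-KO, or 15.8% against 3.02%. In S2 cells it was 23 of 84, or 27.4%, against 16.6%. On chromosome 4 the share of peaks at this lowest level was thus higher in crol-KO than in WT, while over whole lists it hardly moved. The Het sequences showed the same direction, with 17.9% in WT and 28.3% in crol-KO for Crol. Their Cg shares were 20.9% and 29.8%. X had 8.55% and 7.71% for Crol and 7.06% and 8.16% for Cg. It thus lay above chromosome 4 in WT, and also in S2 cells, with 58.5%.

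**Figure D5:**
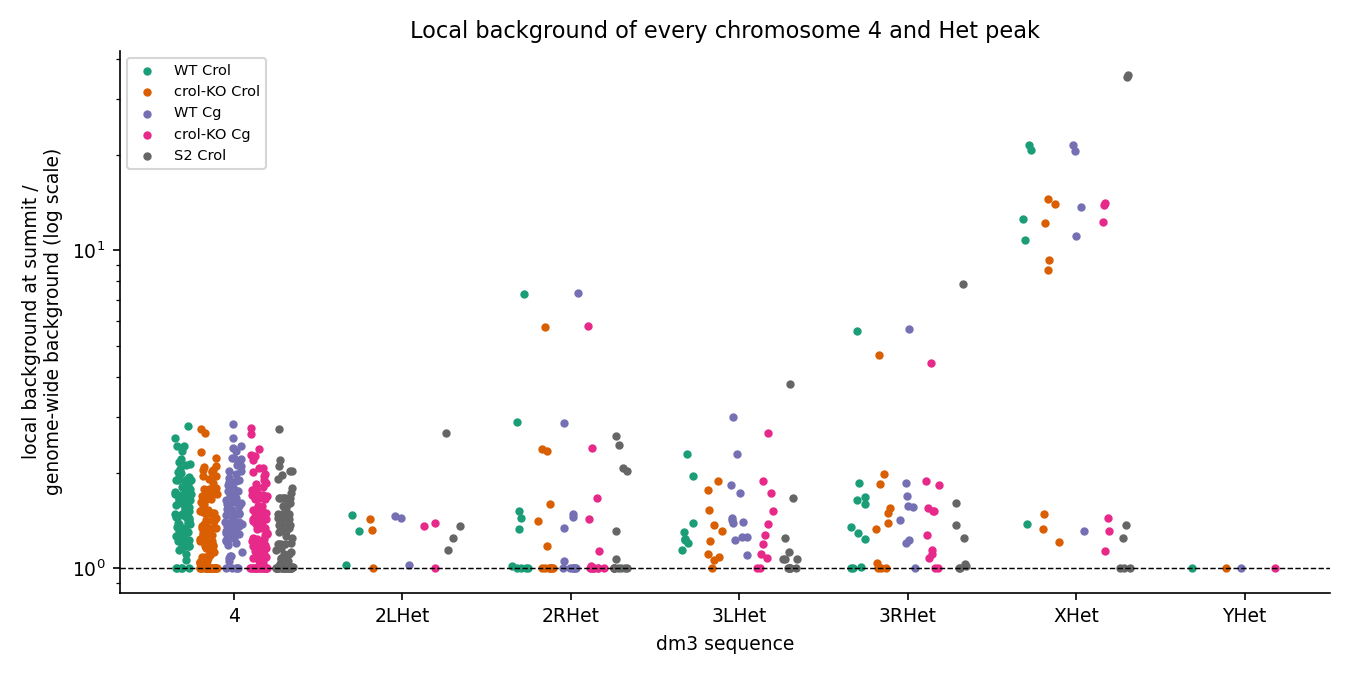
Local background at the summit divided by the genome-wide background of the list (log scale) for every chromosome 4 and Het peak, by dm3 sequence, with colour for the list. Chromosome 4 peaks stay below 3, and on XHet several peaks of each list lie far above, up to 35.5 in S2 cells.

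XHet held the members with the highest background. The widest Het peaks of all 5 lists lay at one locus, XHet:189117-192739, with widths of 3546, 3623, 3509, 3592 and 3492 bp for WT Crol, crol-KO Crol, WT Cg, crol-KO Cg and S2. The summit pileups were 935, 1070, 683, 836 and 1178 reads. The local background was 20.7, 14.0, 20.5, 13.9 and 35.1 times the genome-wide level. The larval pileups were the highest of their lists, while the fold enrichments were 4.23, 6.23, 3.88, 6.69 and 2.33, at ranks 3072, 1145, 3914, 1004 and 9024. The rank was thus higher in crol-KO than in WT and near the end of the list in S2 cells. Between the genotypes the Crol pileup per genome-wide background was 88.1 in WT and 87.5 in crol-KO, so the higher Crol fold enrichment in crol-KO came with a lower background and not with a higher pileup. For Cg the same height was 79.8 in WT and 93.6 in crol-KO, so the higher Cg fold enrichment came with both. The neighbour XHet:193770-196108 had fold enrichments of 3.87, 5.72, 3.40, 6.25 and 2.31. A further XHet locus, XHet:199588-201587, gave the weakest peak of the whole list for WT Crol, crol-KO Crol and crol-KO Cg, at fold enrichments of 1.36, 1.48 and 1.52.

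The strongest Het peak of all 4 larval lists was on 2RHet, at 2RHet:360747-361260. The WT lists gave it fold enrichments of 8.70 for Crol and 9.57 for Cg, and the crol-KO lists 9.46 and 12.0. The ranks of Crol were 165 and 174, and those of Cg 41 and 16, in WT and crol-KO, and in S2 cells the locus had 4.39 at rank 5211. The locus was narrow, 514 bp in all, with pileups of 118 to 144 reads. The strongest S2 peak, 2RHet:3197769-3198355, had 10.6, against 4.38 and 3.86 for Crol in WT and crol-KO. At 3LHet:2188558-2189094 the larval values were 7.90 and 9.22 for Crol and 8.0 and 10.4 for Cg, and S2 cells had 3.60. Larval and S2 orders thus differed at the leading Het loci, as they did on chromosome 4.

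S2 cells lacked 9 Het loci that all larval lists had, or 14.5% (6.86 to 25.8), and had 10 of their own, or 16.1% (8.02 to 27.7). Both intervals included the shares of all loci, 12.2% and 19.7%. The only YHet locus, YHet:4645-4969, was among the 9, with fold enrichments of 5.25 and 4.76 for Crol and 5.33 and 4.43 for Cg in WT and crol-KO. Another 5 of the 9 lay on 3RHet. At one of them, 3RHet:2473906-2474900, Crol went from 5.04 in WT to 2.50 in crol-KO and Cg from 3.21 to 2.14, and at 3RHet:2374140-2374684 Crol went from 3.35 to 4.83 and Cg from 4.00 to 4.69. Loci of 3RHet thus differed in direction.

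Crol and Cg were found at nearly the same sites. On chromosome 4, 75 of 87 WT Crol peaks, or 86.2% (77.1 to 92.7), overlapped a WT Cg peak, against 75.9% of the whole list and 75.7% (74.9 to 76.5) of the arms. Of the WT Cg peaks 74 of 82, or 90.2%, overlapped a WT Crol peak, against 87.1%. In the Het sequences the shares were 37 of 39, or 94.9% (82.7 to 99.4), and 37 of 43, or 86.0%. In crol-KO 91 of 102 Crol peaks of chromosome 4 overlapped a Cg peak, or 89.2%, against 85.0%, and 93 of 101 Cg peaks a Crol peak, or 92.1%, against 90.9%. The Het shares in crol-KO were 43 of 46, or 93.5%, and 43 of 47, or 91.5%. Of these shares, that of WT Crol peaks with a Cg partner was the one whose interval lay above that of the arms. This did not hold with −log10 q of at least 5, where it was 81.8% (71.4 to 89.7) on chromosome 4 and 89.2% (74.6 to 97.0) in the Het sequences, against 74.5% (73.6 to 75.4) on the arms.

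The relative height of both proteins was compared at paired peaks. On chromosome 4 the log2 difference, Cg minus Crol, had a median of 0.12 over 73 WT pairs and 0.00 over 86 crol-KO pairs, while the arms had 0.09 in both genotypes. In crol-KO the 11 pairs on 3RHet, a sequence picked out after its values were seen, had a median of -0.51. Cg was lower at 8 of them, at 23 of the 43 Het pairs together and at 3179 of all 7979 pairs. In WT the 9 pairs of 3RHet had -0.06. These heights come from different antibodies, so they give the order of peaks and not the amounts of the proteins.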

How the data were processed

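According to the methods of the study, read trimming was done by the authors with Trim Galore 0.6.5, followed by alignment to dm3 with Bowtie2 2.3.5, removal of duplicates with SAMtools 1.13, pooling of replicates and peak calling with MACS2 2.2.5 at a q-value of 0.05, with reads extended to 300 bp. Versions come from the submitters' processing notes. Each deposited list gives positions (other), a score, a fold enrichment (ratio) and −log10 p and q values. Of the 34 samples, the 10 behind the 5 lists were analysed, and 24 were not. Between 332 and 357 peak numbers were skipped per list, and those peaks were not analysed here.

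Pileup and background at each summit were solved from the fold enrichment, (pileup + 1) over (background + 1), and the Poisson p-value of MACS2. A whole pileup (within 0.05) resulted for 100% of peaks. The smallest background of a list was taken as genome-wide and turned into reads with the 120 Mb of the fly preset. The control used for peak calling is not given in the sources used here. The functions were tested on simulated data. Intervals are exact Clopper-Pearson at 95%.

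Named loci were, for chromosome 4 and Het apart, the strongest and widest peak of each list, the 5 loci of best mean rank in all lists, loci of both crol-KO or both WT lists only, and the 5 strongest larval-only and S2-only loci. Others were named after their values were seen. The members and lists were chosen with earlier results of these data known. The alternatives were an overlap of 50% of both peaks, a peak within 1000 bp, and −log10 q of at least 5. Those on paired heights and on loci of 1 genotype were added after seeing the data. The only annotation at hand was of another assembly than dm3, so no peak was assigned to a gene and no sequence is printed. Analyses used Python 3.11.15, numpy 2.4.6, scipy 1.17.1 and pandas 2.3.3.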

Additional observations from a re-analysis of the deposited data

How the results depend on the processing

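No paired analysis was possible because the replicates of each group were pooled into 1 list, which also leaves no replicate to leave out. On chromosome 4, an overlap of 50% of both peaks moved the share of WT Crol peaks in the crol-KO Crol list to 81.6%, of WT Cg peaks in the crol-KO Cg list to 87.8%, of WT Crol peaks in the S2 list to 49.4% and of S2 peaks in the WT Crol list to 51.2%. Partners within 1000 bp moved the share of crol-KO Crol peaks in WT to 89.2%, of WT Cg peaks in the WT Crol list to 97.6% and of S2 peaks in the WT Crol list to 82.1%. Requiring partners to overlap more, or less, changes these shares by construction. The other 16 and 17 shares under these settings stayed within their intervals, and so did all 20 under −log10 q of at least 5, where the 10 numbers of peaks stayed within 1.5 times. Under that last setting the WT Crol peaks with a Cg partner no longer had an interval above that of the arms. The median log2 difference of Cg heights at Het pairs, -0.05, became 0.015 for fold enrichment, and the cause was not tested. Loci of chromosome 4 in crol-KO lists only went from 23 to 14 under −log10 q of at least 5 and to 14 when merged within 1000 bp, loci in WT lists only from 5 to 3 under the latter, and Het loci in WT lists only from 2 to 1 under the former. The reads behind the lists ranged from 3.42 to 5.77 M, and the effect of depth was not tested.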
